A study of Mus musculus with 6 samples.

Results

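The miR-181 family is a group of conserved mouse miRNAs made from 6 hairpins, studied here in small RNA from extracellular vesicles (membrane vesicles that cells release, called exosomes in the labels) of young and old mouse muscle. Its members were found by identifier and position and not by their values: 6 loci of the guide (5p) arms miR-181a-5p (MIMAT0000210), miR-181b-5p (MIMAT0000673), miR-181c-5p (MIMAT0000674) and miR-181d-5p (MIMAT0004324), plus the 6 loci of the opposite (3p) arms of the same hairpins. These 12 loci, which carry 10 mature identifiers, are a small part of the 2110 loci and 1966 identifiers in the table of counts. The groups were muscle of young mice and muscle of old mice, with 3 libraries each, and the labels name no allele, treatment or strain in either group. The labels do not state ages, sex, the muscles sampled or how vesicles were isolated, and nothing says that the replicates were separate animals. The p-values therefore take in no more than the variation among these 6 libraries, part of which may be technical.

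A miRNA hairpin is cut into 2 arms, of which the guide is loaded into an Argonaute protein and pairs with messenger RNAs mainly through its seed, bases 2 to 8. miRNAs with the same seed can act on overlapping sets of messages. The miR-181 family is best known from lymphocyte development, where miR-181a tunes the sensitivity of T cell receptor signalling, and from endothelium, brain and muscle. In muscle, miR-181a is upregulated as myoblasts differentiate and represses the homeobox protein Hox-A11, and it has been studied for its messages in mitochondrial turnover.

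The sequences are shown first because the members are so alike that they bear on how reads can be told apart. All 4 guide arms begin with the same 8 bases, and they differ in the middle and at the 3′ end. Sequences here and below are from RefSeq (GRCm38.p6), written 5′ to 3′, with the seed in capitals.
miR-181a-5p: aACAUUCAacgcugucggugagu
miR-181c-5p: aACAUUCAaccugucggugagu
miR-181b-5p: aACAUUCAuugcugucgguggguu
miR-181d-5p: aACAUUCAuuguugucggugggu
By sequence the guides fall into 2 pairs. miR-181a-5p and miR-181c-5p were 1 edit apart, a base that miR-181c-5p lacks, and miR-181b-5p and miR-181d-5p were 2 edits apart. Between these pairs the distance was 4 or 5 edits. Counted from the 5′ end of miR-181a-5p, miR-181b-5p carries A9U, C10U and A21G, and has 1 base more at its 3′ end. Counted from the 5′ end of miR-181b-5p, miR-181d-5p carries C12U and lacks that last base. Among 1679 distinct mature names in the RefSeq table, 4 had the seed ACAUUCA at bases 2 to 8, and all 4 were these guides.

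The genome pairs the members differently, with 1 miR-181a-like and 1 miR-181b-like hairpin in each cluster. On chromosome 1 (mm10), Mir181a-1 at chr1:137966455-137966541 and Mir181b-1 at chr1:137966639-137966718 lay 97 bases apart on the plus strand, in an intron of the noncoding gene Gm4258, and Mir181b-1 also lay in an exon of the noncoding A430106G13Rik. On chromosome 2, Mir181a-2 at chr2:38852735-38852810 and Mir181b-2 at chr2:38853830-38853918 lay 1019 bases apart on the plus strand, opposite to an intron of the nuclear receptor gene Nr6a1. On chromosome 8, Mir181d at chr8:84178716-84178787 and Mir181c at chr8:84178873-84178961 lay 85 bases apart on the minus strand, in an intron of Nanos3 in GENCODE M21. The hairpins of the first 2 clusters are shown because their guide arms are identical copies, and only the bases outside those arms tell the copies apart. Capitals mark both annotated arms.
Mir181a-1: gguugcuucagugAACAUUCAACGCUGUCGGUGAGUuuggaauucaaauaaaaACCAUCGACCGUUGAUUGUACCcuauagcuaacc
Mir181a-2: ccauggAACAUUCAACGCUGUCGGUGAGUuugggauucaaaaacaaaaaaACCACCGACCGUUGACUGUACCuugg
Mir181b-1: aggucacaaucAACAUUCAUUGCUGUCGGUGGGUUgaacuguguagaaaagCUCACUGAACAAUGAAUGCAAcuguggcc
Mir181b-2: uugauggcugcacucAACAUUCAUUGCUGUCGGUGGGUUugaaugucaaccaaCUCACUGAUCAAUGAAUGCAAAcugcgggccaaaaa

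The libraries held 904892 to 1706396 counts, the lowest total in old replicate 1. That library stood apart: the dominant vesicle miRNA, miR-21a-5p, took 35.4% of its counts against 49.0% to 52.9% in the other 5 libraries. The fold changes of the family below are therefore given with and without it, and other results are given by library or with the values found without it. Of the muscle miRNAs checked against the label, miR-206-3p, miR-133a-3p, miR-1a-3p, miR-133b-3p and miR-499-5p were present. miR-208b-3p had 20 counts in all libraries, and miR-486a-5p, whose locus overlaps another, was listed at 0. No locus of the miR-181 family overlaps another locus of the table, a setting in which 104 of 106 loci held no count.

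The guide arms were abundant cargo, together 0.709% to 0.861% of all counts in the young libraries and 0.809% to 1.09% in the old ones. miR-181a-5p made up 79.8% of the guide counts over all libraries, miR-181b-5p 14.3%, miR-181c-5p 3.72% and miR-181d-5p 2.18%. Levels are given as CPM, the usual depth-scaled counts, on library sizes scaled by the trimmed mean of M-values (TMM), with identical copies summed. In all 6 libraries the order was miR-181a-5p, miR-181b-5p, miR-181c-5p, miR-181d-5p, and no neighbours in that order overlapped within a group. Their annotated lengths are 22 to 24 bases, and per base the order was the same, with 267, 55.8, 13.8 and 9.34 CPM per base in young and 342, 47.6, 15.8 and 7.17 in old. By mean CPM, miR-181a-5p ranked 21st of 317 tested mature identifiers, miR-181b-5p 53rd, miR-181c-5p 92nd and miR-181d-5p 112th.

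miR-181a-5p had 6867, 6556 and 5022 CPM in young replicates 1, 2 and 3 and 5648, 7958 and 9989 CPM in old replicates 1, 2 and 3. Old replicates 2 and 3 lay above every young library, while old replicate 1 lay inside the young range, so that the groups overlapped. Mean levels were 6148 ± 988 CPM for the young group and 7865 ± 2172 CPM for the old group (SD, n = 3 each). By edgeR's quasi-likelihood test the log2 fold change was 0.36 ± 0.20 (SE), with a 95% interval of -0.05 to 0.76 and an adjusted p of 0.295, which does not pass 0.05. Without old replicate 1 the log2 fold change was 0.57 ± 0.15 and it passed (edgeR adjusted p = 0.0039). The call thus depends on this 1 library, while the size of the change leaned on others too. It was 0.15 without old replicate 3 (edgeR adjusted p = 0.741) and 0.24 without young replicate 3 (adjusted p = 0.674).

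miR-181b-5p, made beside miR-181a-5p in 2 clusters, had the opposite sign. It had 1410, 1286 and 1323 CPM in the young libraries and 1152, 1114 and 1160 CPM in the old ones. Each old library lay below each young one, the 1 guide of the family whose groups did not overlap. The means were 1340 ± 63.8 and 1142 ± 24.5 CPM (SD, n = 3 each). The log2 fold change was -0.23 ± 0.16 with a 95% interval of -0.56 to 0.10, and did not pass (edgeR adjusted p = 0.436). Groups that do not overlap are common in these data: they were found at 26.2% of the 317 mature identifiers, and at 12.6% with old below young. Without old replicate 1 the value was -0.21 (adjusted p = 0.391).

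miR-181c-5p had 340, 304 and 268 CPM in the young libraries and 298, 370 and 377 CPM in the old ones. As for miR-181a-5p, old replicates 2 and 3 lay above the young range and old replicate 1 inside it. The log2 fold change was 0.20 ± 0.19 (edgeR, 95% interval -0.20 to 0.60, adjusted p = 0.634), and 0.32 without old replicate 1 (adjusted p = 0.219). miR-181d-5p, from the neighbouring hairpin, had 201, 203 and 240 CPM in the young libraries and 213, 137 and 145 CPM in the old ones. Here old replicates 2 and 3 lay below the young range, and old replicate 1 inside it. Its log2 fold change was -0.39 ± 0.22 (edgeR, 95% interval -0.84 to 0.07, adjusted p = 0.301). Without old replicate 1 it was -0.58 ± 0.20 and passed (adjusted p = 0.0395). It was -0.26 without old replicate 2 (edgeR adjusted p = 0.643) and -0.28 without young replicate 3 (adjusted p = 0.640).

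**Figure D1:**
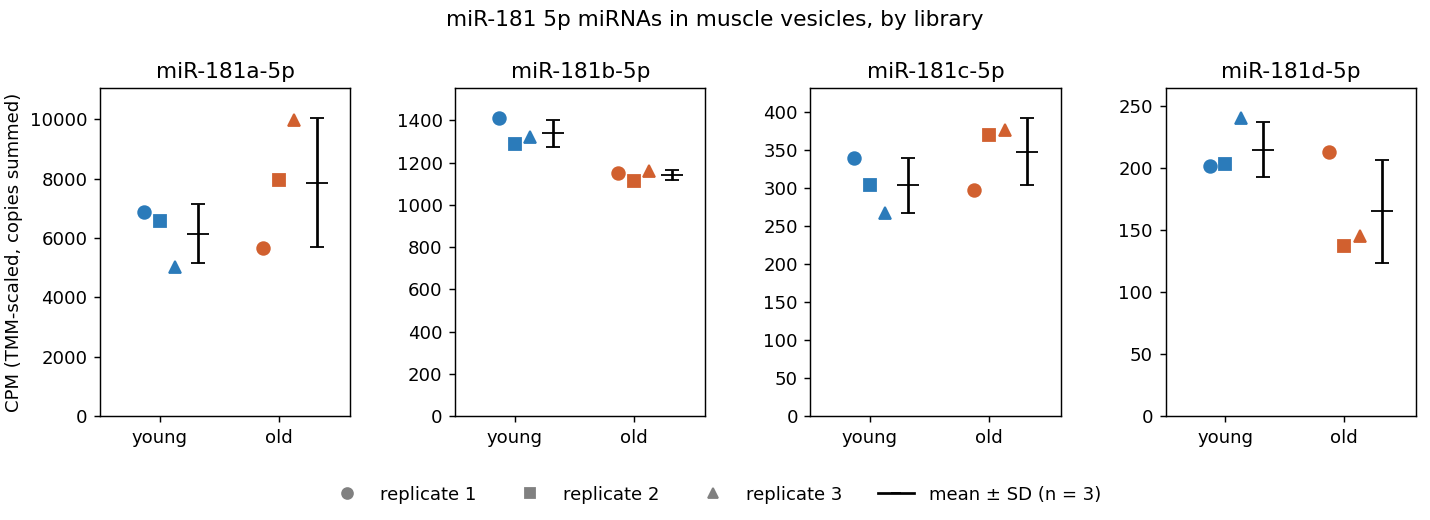
CPM of the 4 miR-181 guide miRNAs (vertical axes from 0, TMM-scaled, identical copies summed) in the 3 young and 3 old libraries. Points are libraries with the replicate number given by the symbol, and bars are mean ± SD; old replicate 1, the circle, lies inside the young range for miR-181a-5p, miR-181c-5p and miR-181d-5p.

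In the test with all 6 libraries no member of the family passed, at any locus or with copies summed, and none had an unadjusted p under 0.05. Of the 12 loci, 9 passed the filter on low counts, and of the 10 mature identifiers 7 did. Over all tested mature identifiers 5.05% passed (11 higher and 5 lower of 317), and over all tested loci 4.32% (12 higher and 3 lower of 347). Under upper-quartile scaling these splits were 7 higher and 7 lower, and 11 higher and 6 lower. An unadjusted p under 0.05 was found for 22.4% of the identifiers and 22.5% of the loci. By DESeq2 and by limma-voom, too, 0 of the family's members passed. With copies summed, DESeq2 gave no adjusted p for miR-181a-1-3p, miR-181a-2-3p and miR-181c-3p, and at the loci none for miR-181c-3p. The median log2 fold change of the 7 tested members was 0.20, beside 0.05 over all tested identifiers, with 4 above 0 and 3 below. At the 9 tested loci the median was 0.21, and both medians were 0.03 without young replicate 3.

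Without old replicate 1, 2 of the 7 tested mature miRNAs passed, miR-181a-5p higher and miR-181d-5p lower in old. In that comparison 14.8% of all 330 tested identifiers passed, 7.58% higher and 7.27% lower, against 5.05% with all libraries, so that the whole table gained calls along with the family. At the level of loci 3 of 9 passed, which are both copies of miR-181a-5p and miR-181d-5p, beside 12.5% of all loci (6.96% higher and 5.57% lower). Reads that lie within the arm of the miR-181a-5p copies cannot be told apart, so these copies are not separate results. Leaving out each of the other 5 libraries in turn passed no member.

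**Figure D2:**
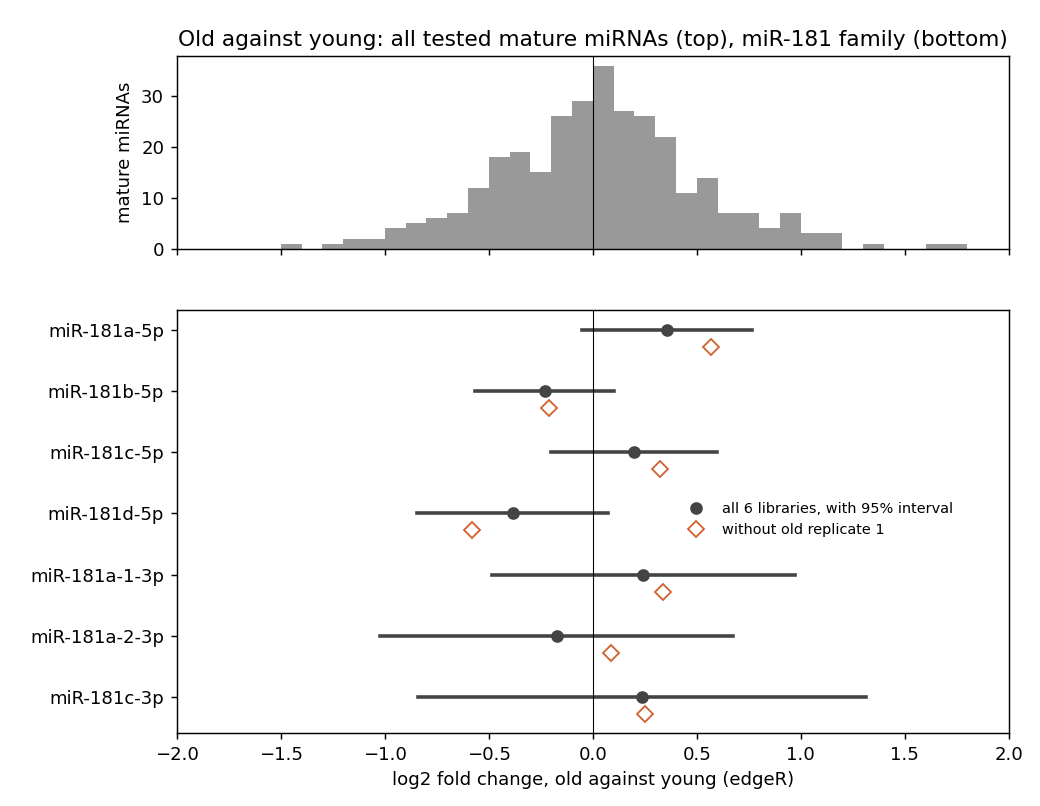
Log2 fold changes of old against young (edgeR, horizontal axis). The top panel counts all 317 tested mature miRNAs per bin of the fold change, and the bottom panel gives the 7 tested members of the family with 95% intervals, all of which include 0, and as open diamonds their values without old replicate 1.

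Ratios between members of 1 library do not depend on how libraries are scaled, and were compared for that reason. miR-181a-5p had 4.87, 5.10 and 3.80 times the counts of miR-181b-5p in young replicates 1, 2 and 3. The same ratio was 4.90, 7.14 and 8.61 in old replicates 1, 2 and 3. On chromosome 8, miR-181c-5p had 1.69, 1.50 and 1.12 times the counts of miR-181d-5p in the young libraries and 1.40, 2.71 and 2.59 times in the old ones. In both ratios old replicates 2 and 3 lay above every young library, young replicate 3 was lowest, and old replicate 1 lay inside the young range. These ratios varied 2.27-fold and 2.43-fold between the lowest and the highest library.

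The ratios between members that are alike in sequence varied less. miR-181a-5p over miR-181c-5p ranged from 18.7 to 26.5, or 1.41-fold, and miR-181b-5p over miR-181d-5p from 5.42 to 8.15, or 1.50-fold. In these 6 libraries the guides thus kept a steadier ratio to the member of like sequence than to the member of the same cluster. Pairs alike in neither way were not compared as ratios. By the likeness given below, miR-181b-5p stood nearly as close to miR-181c-5p, alike in neither way, as to miR-181d-5p. The grouping by sequence was chosen after the values were seen and is given as a description, without a test. miR-181a-5p and miR-181c-5p are 1 edit apart, miR-181b-5p and miR-181d-5p 2 edits, and the mapping settings are not given. The part of reads of 1 member placed at the locus of its like in these steadier ratios was not tested. Together miR-181a-5p and miR-181c-5p took 81.7%, 82.2% and 77.2% of the guide counts in the young libraries, and 81.3%, 86.9% and 88.8% in the old ones. The widest 95% Wilson interval among these shares, that of old replicate 1, ran from 80.4% to 82.2%, so that the spread between libraries was larger than the counting error. Reads are not independent molecules, and such intervals cover counting error only.

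**Figure D3:**
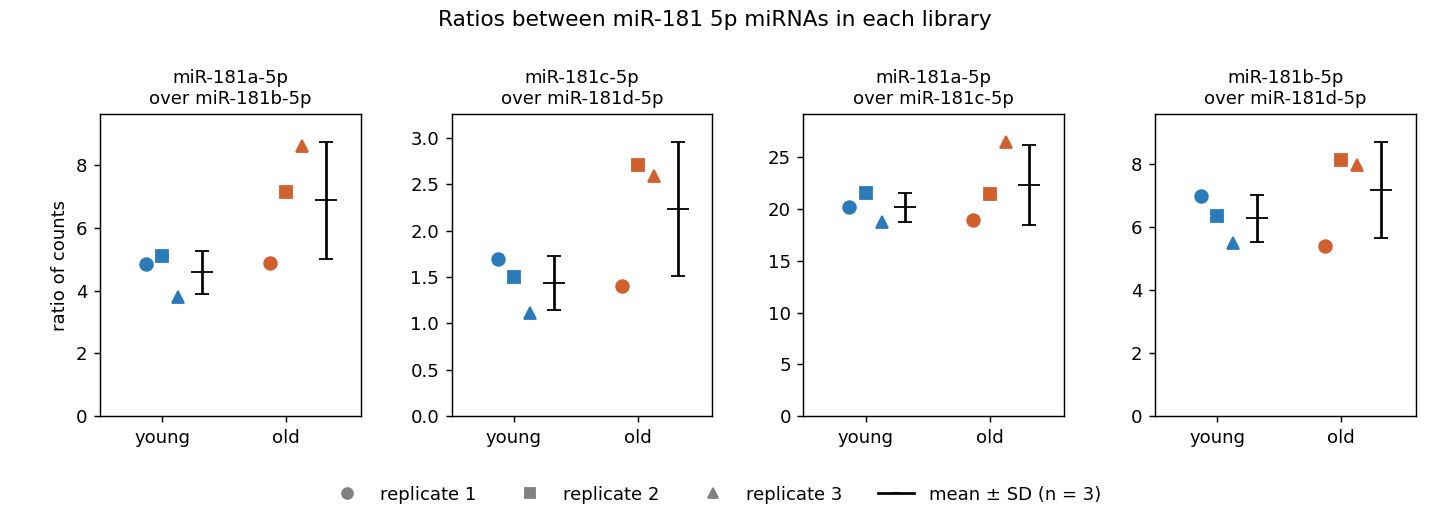
Ratios of counts between miR-181 guide miRNAs (vertical axes from 0) in each library, with mean ± SD of 3 libraries. The 2 left panels pair members of the same cluster and vary 2.27-fold and 2.43-fold over the libraries, the 2 right panels pair members of like sequence and vary 1.41-fold and 1.50-fold.

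The make-up of the guide counts was compared between the groups by exact permutation over the libraries (two-sided), which with 3 against 3 cannot give a p below 0.1. miR-181a-5p took 76.6% ± 2.86 of them in the young libraries and 82.0% ± 4.27 in the old ones (SD, n = 3 each; p = 0.3 by exact permutation). miR-181b-5p took 16.9% ± 2.11 and 12.4% ± 3.00 (exact permutation p = 0.2), with 15.8% in old replicate 1 and 11.6% and 9.94% in old replicates 2 and 3. miR-181c-5p took 3.80% ± 0.144 and 3.72% ± 0.44 (exact permutation p = 0.9). miR-181d-5p took 2.74% ± 0.666 and 1.86% ± 0.913 (exact permutation p = 0.3). Adjusted over the 4 members these permutation p-values were 0.4, 0.4, 0.9 and 0.4, and none could have passed in this design. With 1 library left out the old minus young difference ran from 3.61 (without old replicate 3) to 7.77 (without old replicate 1) percentage points for miR-181a-5p. For miR-181d-5p it was -0.877 with all libraries, -1.40 without old replicate 1 and -0.569 without old replicate 3, and for miR-181c-5p the difference was positive, at 0.166, without old replicate 3. The share of the 4 guides in all counts was 0.793% ± 0.0774 in the young libraries, against 0.948% ± 0.138 in the old ones (p = 0.2 by exact permutation). This difference of 0.155 percentage points became 0.224 when old replicate 1 was left out, and 0.0861 when old replicate 3 was.

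The identical copies show how the reads were placed. Over all libraries miR-181a-5p had 29157 counts at its chromosome 1 copy and 29057 at its chromosome 2 copy, so that 49.9% lay on chromosome 2 (95% Wilson interval 49.5% to 50.3%). For miR-181b-5p the copies held 4913 and 5517 counts. Its chromosome 2 copy took 52.9% (95% Wilson interval 51.9% to 53.9%) and held more counts than the other in all 6 libraries. In the hairpins printed above, the 4 bases that follow the miR-181a-5p arm are the same in both copies, while those that follow the miR-181b-5p arm differ from the first base on. An even split thus says nothing of which miR-181a hairpin was the source, and the part of the flanking bases in the uneven split of miR-181b-5p was not tested.

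**Figure D4:**
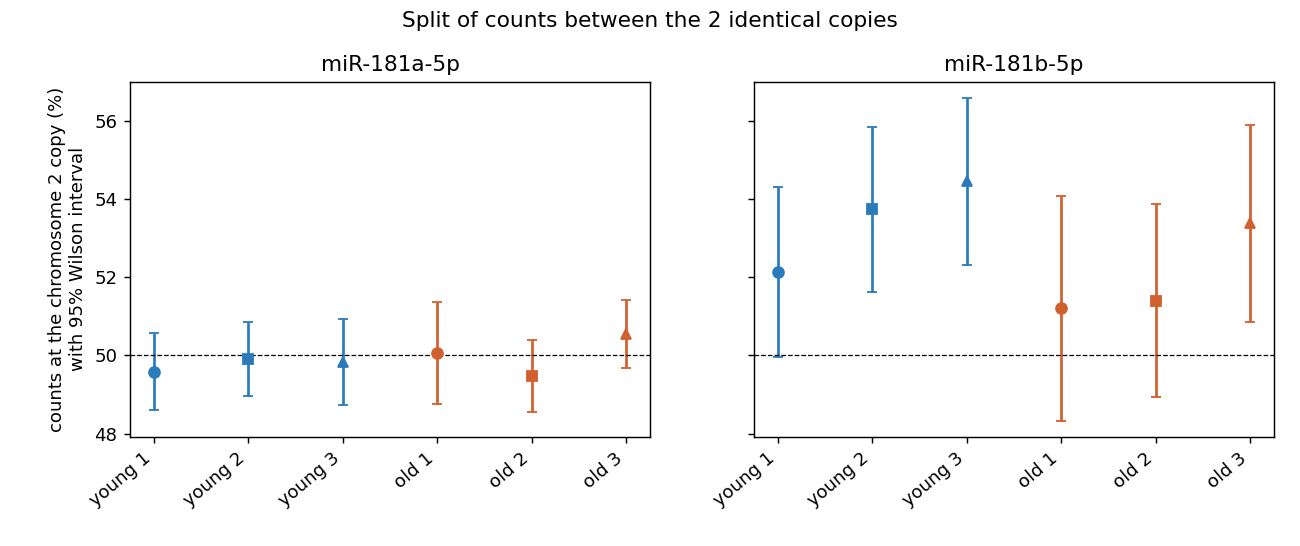
Percent of the counts of miR-181a-5p (left) and miR-181b-5p (right) that fell on the chromosome 2 copy in each library, with 95% Wilson intervals; the vertical axis does not start at 0 and the dashed line marks 50%. All 6 intervals of miR-181a-5p include 50%. All 6 points of miR-181b-5p lie above 50%, but its intervals in young replicate 1 and old replicates 1 and 2 include 50%.

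The 3p arms differ between hairpins, and were rare. They are shown because, unlike the guide arms, they differ between the hairpins of the copies, with bases 2 to 8 in capitals.
miR-181a-1-3p: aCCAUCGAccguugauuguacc
miR-181a-2-3p: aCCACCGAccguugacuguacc
miR-181c-3p: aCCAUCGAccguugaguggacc
Counted from the 5′ end of miR-181a-1-3p, miR-181a-2-3p carries U5C and U16C, and miR-181c-3p carries U16G and U19G. The seed of miR-181a-1-3p is that of miR-181c-3p, and U5C sets the seed of miR-181a-2-3p apart.

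miR-181a-1-3p, from chromosome 1, had 33, 47 and 23 counts in the young libraries and 23, 34 and 40 counts in the old ones. miR-181a-2-3p, from chromosome 2, had 32, 29 and 27 counts in the young libraries and 10, 19 and 34 counts in the old ones. In sum they had 200 and 151 counts, so that both miR-181a hairpins were represented. The share of miR-181a-1-3p in the counts of both ranged from 46.0% to 61.8% in young and from 54.1% to 69.7% in old, with Wilson intervals as wide as 52.7% to 82.6% in old replicate 1. Neither passed the test. Their log2 fold changes were 0.24 ± 0.35 (edgeR adjusted p = 0.783) and -0.17 ± 0.41 (adjusted p = 0.864). With old replicate 1 left out they were 0.34 and 0.09, and did not pass either.

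miR-181c-3p had 10, 9 and 12 counts in the young libraries and 8, 9 and 12 in the old ones (log2 fold change 0.24 ± 0.52, edgeR adjusted p = 0.856; 0.25 without old replicate 1). The 3p arms of the miR-181b-like hairpins were almost absent: miR-181b-2-3p had 5 counts, all in old replicate 2, miR-181d-3p had 1 count, also there, and miR-181b-1-3p had 0 in every library. On the TMM-scaled library sizes a count of 0 allows up to 1.82 to 3.00 CPM (3 counts), depending on the library.

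With counts summed over all libraries, the share of the 3p arm therefore differed between hairpins. It was 2.16% of the counts of Mir181c (95% Wilson interval 1.69% to 2.78%) and 0.599% of those of the Mir181a hairpins (0.540% to 0.665%). It was 0.0479% for the Mir181b hairpins (0.0205% to 0.112%) and 0.0628% for Mir181d (0.0111% to 0.355%). The shares of Mir181b and Mir181d rested on 5 counts and 1 count, all in old replicate 2. Intervals on these sums cover counting error only, not the spread between libraries. Over the whole family the 3p share was 0.593%, 0.612% and 0.571% in the young libraries and 0.557%, 0.503% and 0.569% in the old ones. The groups did not overlap (exact permutation p = 0.1, the smallest possible), but young replicate 3 and old replicate 3 differed by less than their counting error, with 95% Wilson intervals of 0.446% to 0.731% and 0.461% to 0.702%. The difference of -0.0492 percentage points became -0.0561 when old replicate 1 was left out, and -0.0292 when old replicate 2 was.

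The profile of miR-181a-5p over the 6 libraries was set against the other mature identifiers of at least 100 CPM on average. Likeness was the root mean square difference of log2 CPM after centring each miRNA on its own mean, over 141 identifiers with miR-181a-5p included. The 5 most alike were miR-218-5p (0.146), miR-128-3p (0.154), miR-2137 (0.159), miR-181c-5p (0.167) and miR-99a-5p (0.171). miR-181c-5p was thus the 4th nearest, while miR-181b-5p was the 62nd (0.391) and miR-181d-5p the 127th (0.601). Set against miR-181b-5p, miR-181d-5p was the 50th nearest (0.232) and miR-181c-5p the 61st (0.254). Set against miR-181c-5p, miR-181a-5p was the 21st nearest. miR-218-5p had 474, 425 and 370 CPM in the young libraries and 346, 462 and 545 CPM in the old ones. None of the 5 most like miR-181a-5p passed the test of old against young, and the measure says nothing of a shared source.

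Lists of other miRNAs chosen for this tissue give the surroundings, with copies summed. miR-218-5p and miR-128-3p, which are enriched in neurons, belong to the list of neural and endothelial miRNAs, of which 3 of 7 were tested. None of the 3 passed the test, with or without old replicate 1 (median log2 fold change 0.31 and 0.47). The neuronal miR-124-3p had 46.6 to 68.1 CPM in the young libraries and 80.8 to 92.9 CPM in the old ones, which did not overlap (log2 fold change 0.58, edgeR adjusted p = 0.167). Groups that do not overlap, in either direction, were found at 26.2% of all identifiers. miR-9-5p and both arms of miR-126a were listed at 0, but every locus of theirs overlaps another locus, so that these zeros do not show absence. The same holds for the zeros of miR-142a-3p, miR-24-3p and miR-486a-5p. The list took 0.0599% to 0.0721% of the counts in young and 0.0662% to 0.0830% in old. Of 8 miRNAs of blood and immune cells 7 were tested, and miR-155-5p, which is induced in activated immune cells, fell (log2 fold change -0.82 ± 0.18, edgeR adjusted p = 0.0097) while 6 did not pass. Those 6 all had the opposite sign, from 0.05 for miR-451a to 0.78 for miR-142a-5p (edgeR adjusted p = 0.893 and 0.184). For miR-142a-5p and miR-146a-5p (0.72, edgeR adjusted p = 0.198) the old libraries lay above the young ones without overlap. Lower calls made up 1.58% of all identifiers. Without old replicate 1 miR-155-5p also passed, at -0.84, as did miR-142a-5p, a miRNA of blood cells, at 0.96 (edgeR adjusted p = 0.0407). In that comparison 7.58% of all identifiers were called higher and 7.27% lower. The median of the list was 0.10, and 0.20 without that library, and the list took 4.15% to 4.50% of the counts in young and 4.22% to 4.63% in old. Nearly all of that share was miR-451a, a miRNA of red blood cells, with 41267 to 43062 CPM in the young libraries and 40839 to 48341 CPM in the old ones. The myeloid miR-223-3p had 248 to 265 CPM in the young libraries and 244 to 317 CPM in the old ones. The part of these cells in the levels of miR-181 was not tested, and in bulk vesicles fewer vesicles of a source cannot be told apart from less miRNA per vesicle.

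Of 7 muscle miRNAs 5 were tested and 3 rose, namely miR-133a-3p, miR-499-5p and miR-1a-3p, with a median log2 fold change of 0.70, beside 3.47% of all identifiers called higher. The same 3 passed without old replicate 1, beside 7.58% of all identifiers called higher there, and the median was 0.59. Of the 2 loci of miR-1a-3p, 1 overlaps another locus, and the effect of that overlap on its counts was not tested. The list took 9.91% of the counts of old replicate 1 and 4.61% to 6.26% of those of the other 5 libraries. Most of this share was miR-206-3p, which did not pass (log2 fold change 0.16, edgeR adjusted p = 0.765; -0.14 without old replicate 1) and had 78491 CPM in old replicate 1 and 39314 to 54881 CPM elsewhere. The cluster of miR-23a, miR-27a and miR-24-2 starts 29556 bases from Mir181c, on the other strand. Of its 3 miRNAs 2 were tested and neither passed with all libraries. miR-23a-3p had 10082 ± 392 and 10276 ± 491 CPM, and miR-27a-3p had 11820 ± 417 and 15030 ± 2807 CPM (SD, n = 3 each), with a log2 fold change of 0.35 ± 0.17 (edgeR adjusted p = 0.248). The median of the 2 was 0.19. Without old replicate 1 miR-27a-3p passed at 0.52 ± 0.14 (edgeR adjusted p = 0.0053), and the median was 0.30. In that comparison 7.58% of all identifiers were called higher. There miR-181c-5p did not pass (edgeR adjusted p = 0.219), and miR-181d-5p passed in the other direction. miR-27a-3p had 11791 CPM in old replicate 1 and 16528 and 16771 CPM in old replicates 2 and 3.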

How the data were processed

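The authors deposited unnormalized counts for each annotated mature miRNA locus. They were made with featureCounts version 2.0.6, with no option set for strand, overlapping features or multi-mapped reads, per the file headers. Reads were aligned with BWA to mm10, per the submitters' processing notes; trimming and mapping settings: not given in the sources used here. Reads that lie within the identical arm of 2 copies cannot be told apart, so counts were also summed per mature identifier. Of 2110 loci, 1734 took their name by exact position from RefSeq (GRCm38.p6), 6 from a shared identifier and 360 from GENCODE M21 with a tolerance of 3 bases; 10 had none. Old and young were compared with edgeR 4.0.16 (R 4.3.3, quasi-likelihood test, TMM, filterByExpr with a minimum count of 10 and total of 15), two-sided, adjusted by Benjamini-Hochberg over all loci or identifiers tested, threshold 0.05. Alternatives used DESeq2 1.42.0 and limma 3.58.1; shares were tested by exact permutation (scipy 1.17.1). The library totals ranged from 904892 to 1706396. Fits were repeated with other scalings, without the filter, with a replicate block and without each library in turn. The procedure was also run on simulated counts, with the same variability at all loci and no deviant library. That run therefore does not test how calls depend on a library like old replicate 1.

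Members and lists were chosen with earlier results of these data known. The named miRNAs are all members, the 5 most like miR-181a-5p (at least 100 CPM, log2 of CPM plus 1), and from each of 4 lists (muscle, blood and immune cells, neural and endothelial, neighbours of Mir181c) those that passed or were most abundant, up to 3 a list. Other list members (those at or near 0 counts, miR-133b-3p, miR-142a-5p and miR-146a-5p) were named after their values were seen.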

Additional observations from a re-analysis of the deposited data

How the results depend on the processing

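With all 6 libraries, the number of family members past 0.05 was 0 under 4 scalings, without the filter, with DESeq2, with limma-voom and with a replicate block. Leaving out 1 library at a time gave 0 to 3 of the loci and 0 to 2 of the mature miRNAs, above 0 only without old replicate 1. The log2 fold changes of miR-181a-5p stayed between 0.15 and 0.57, of miR-181b-5p between -0.29 and -0.21, and of miR-181d-5p between -0.58 and -0.26 over all these settings. That of miR-181a-2-3p ran from -0.66 to 0.086 when 1 library was left out, positive only without old replicate 1, and the old minus young difference in the share of miR-181c-5p from -0.255 to 0.166 percentage points, positive only without old replicate 3; the cause was not tested. Over all loci, 15 passed, against 23 with DESeq2, 6 with the replicate block and 5 to 45 with 1 library left out, the most without old replicate 1. Over all mature identifiers 16 passed, against 7 with library totals as the only scaling and 4 to 49 with 1 library left out. The values showed no pairing of the libraries by replicate number. Deviations of same-numbered libraries correlated at -0.13, 0.02 and -0.15, and no library correlated best with the one of its own number. Such deviations within groups of 3 cannot exclude shared animals or days. The family had 0 calls with and without the replicate block, where miR-181a-5p had 0.33 (edgeR adjusted p = 0.407). The 3p arms rested on 200 counts or fewer each, which limits their precision.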
